A study of Hordeum vulgare with 12 samples.

Results

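The genes described here form a stretch of barley chromosome 2H, with IDs from HORVU.MOREX.r3.2HG0185000 to HORVU.MOREX.r3.2HG0216000, in which some genes had large differences between the nal1 mutant and Sebastian, its wild type. The range was set from that difference, so everything said of nal1 against Sebastian in it is a description and carries no test. The range holds 3101 gene IDs, of which 1040 had enough reads to be tested, out of 22437 tested genes on all chromosomes. IDs are written below by their last part, 2HG and a number. The number rises along the chromosome in this annotation, so ID order stands for position, and no distance in bases is given. The files pair no ID with a gene name, and 0 of 81687 IDs were found in the barley gene table used as a reference, so no gene is given a function here.

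RNA came from barley plants aged 7 days. Leaf 1 was taken off and the lowest centimetre of what was left of the shoot was used, a piece that holds the shoot apex and the young leaf bases. The groups were nal1 in the Sebastian background, the cultivar Sebastian, blf13 in the Bonus background, and the cultivar Bonus, with 3 biological replicates each and 6 plants pooled per replicate. The labels name no treatment, and each mutant is 1 line. Any other genetic difference between a line and its wild type cannot be told apart from the named mutation. Whether the piece expressed the markers of its tissue was not tested, since the IDs carry no names.

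In rice, NARROW LEAF1 encodes a trypsin-like serine protease that is known for its effect on leaf width, on the pattern of the veins and on auxin transport. Leaves of grasses grow from their base, where cells divide and expand, and leaf width is set early there. The series title places blf13 in the barley counterpart of this gene, as a gain-of-function mutation. The sources used here do not say where on the chromosomes the mutated gene lies, so its place relative to the stretch was not analysed here.

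Reads counted in genes numbered 14831979 in the shallowest library, nal1 replicate 1, and 62995658 in the deepest, Sebastian replicate 3. The stretch took 3.64% to 3.89% of them in each library. Of its IDs, 2061 were not tested, and 1339 of these had no read in any of the 12 libraries. The remaining 722 had few reads. Among the IDs not tested, 93 had reads in nal1 and none in Sebastian, with at most 13 reads summed over the 3 nal1 libraries, and 145 had reads in Sebastian and none in nal1, with at most 42. Among the tested genes, 17 had no read in nal1 and 14 none in Sebastian, and such genes passed the filter through other genotypes or through the one in which they were present. At the lower limit of the range, 2HG0185000 just inside had 65.2 ± 3.13 CPM (a gene's counts as a share of the library's reads in genes, with library sizes scaled by TMM) in nal1 and 47.9 ± 1.79 CPM in Sebastian, and 2HG0184990 just outside had 37.4 ± 3.12 and 38.2 ± 0.986 CPM in the same order (SD, n = 3 each). At the upper limit, 2HG0215950 inside had no read in nal1 or Sebastian, and 2HG0216050 outside had 1.29 ± 0.513 CPM in nal1 and 0.627 ± 0.220 CPM in Sebastian (SD, n = 3 each).

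In nal1 against Sebastian, the large changes were spread along the stretch, in places as neighbouring pairs or loose groups, and most of the genes between them were not called. Of the 1040 tested genes, 111 (10.7%) were called, meaning an adjusted p under 0.05 in edgeR's quasi-likelihood test over all tested genes, where 11.5% of all tested genes were called. Of these, 74 were higher in nal1 (background 6.12%) and 37 lower (background 5.42%), and in 104 of the 111 (background 11.2%) the 3 nal1 libraries lay wholly above or below the 3 Sebastian libraries. Changes of 2-fold or more were found in 35 genes (3.37%, background 2.06%), of which 26 were higher (background 1.64%) and 9 lower (background 0.423%). Changes of 4-fold or more were found in 7 genes (0.673%, background 0.325%), of which 2 were higher (background 0.192%) and 5 lower (background 0.134%). The median absolute log2 fold change was 0.17 over the stretch and 0.16 over all tested genes. Among the 74 higher genes the median log2 fold change was 0.71, and among the 37 lower genes it was −0.30. At the median the 74 were also less abundant than the 37, and the part of abundance in this gap was not tested. The count of 111 depended on which library was left out. It fell to 55 without nal1 replicate 2, 53 without nal1 replicate 3, 46 without Sebastian replicate 2 and 35 without Sebastian replicate 3. It was 111 without nal1 replicate 1 and 114 without Sebastian replicate 1. The 35 genes of 2-fold or more became 22 on leaving out nal1 replicate 2, 22 on leaving out Sebastian replicate 2 and 18 on leaving out Sebastian replicate 3.

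**Figure D1:**
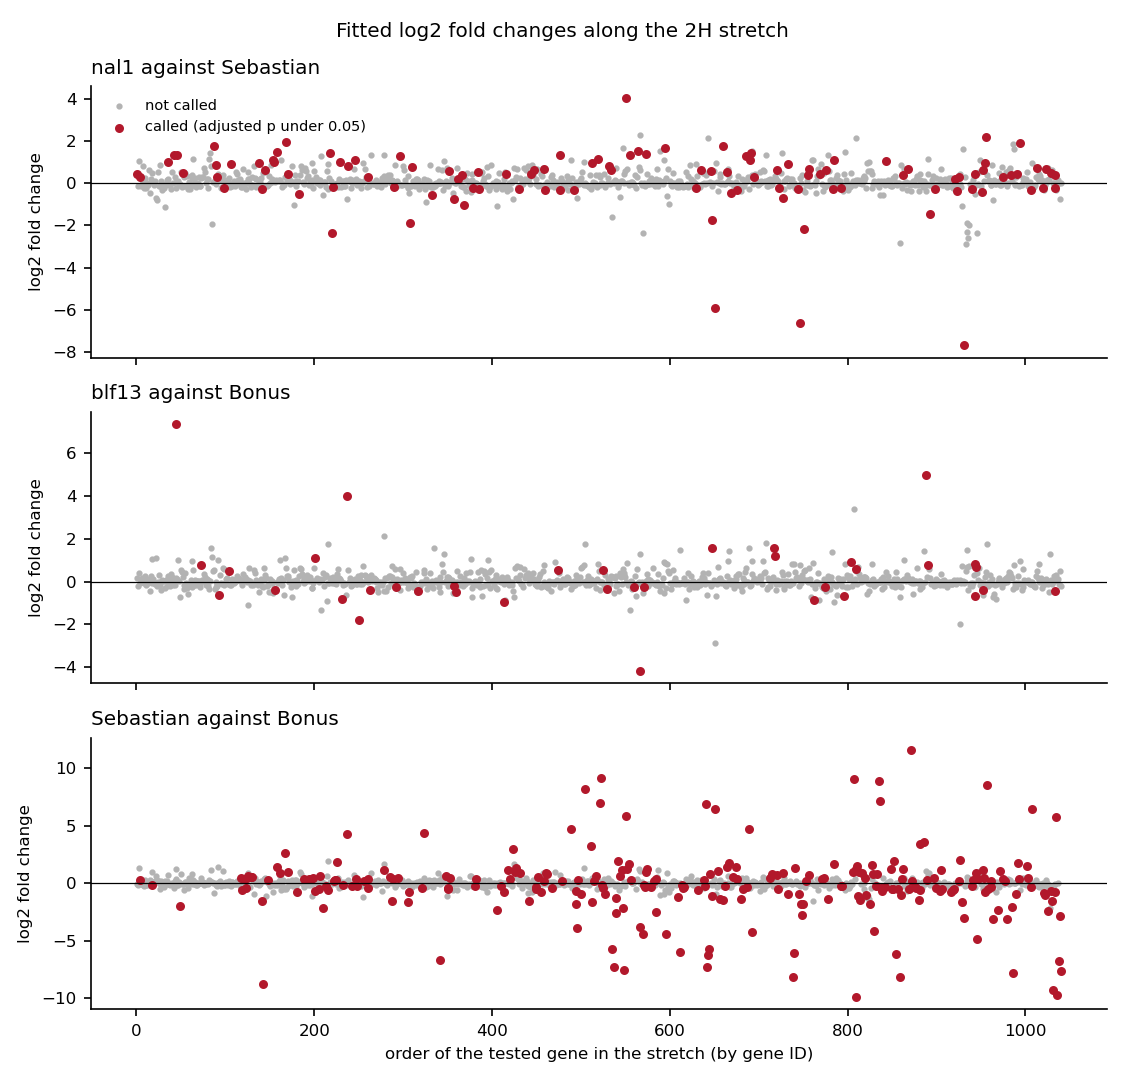
Fitted log2 fold change (vertical axis) of the 1040 tested genes in ID order (horizontal axis) for nal1 against Sebastian, blf13 against Bonus and Sebastian against Bonus, with called genes as red points and the others grey. In nal1 against Sebastian the lowest point lies at −7.68 and the highest at 4.03, and the vertical scales differ between panels.

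In nal1 against Sebastian, 6 genes met the rule for being named, namely a call, a change of 4-fold or more, nal1 and Sebastian libraries that did not overlap, and a mean of 1 CPM or more in the genotype with the higher level. The first in ID order was 2HG0190650. It had 35.3, 33.0 and 35.7 CPM in nal1 and 174, 175 and 182 CPM in Sebastian. In blf13 it had 177, 183 and 176 CPM, and in Bonus 182, 200 and 182 CPM. All 9 libraries of the other genotypes thus lay in 1 narrow band far above the nal1 libraries, and the log2 fold change of nal1 over Sebastian was −2.35 (SE 0.06). In tissue of mixed cells, fewer cells that express a gene and less of its RNA per cell cannot be told apart, here or in any result below.

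The gene 2HG0200010 had the largest increase among the 111 called genes. It had 4.09, 4.35 and 3.88 CPM in nal1, against 0.172, 0.215 and 0.307 CPM in Sebastian, a log2 fold change of 4.03 (SE 0.27). No read of it was found in any blf13 or Bonus library. Reads of it were thus found only in the 6 libraries of the Sebastian background, few in Sebastian and more in nal1.

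In 2HG0203150 the wild type Sebastian was the genotype that stood apart. The gene had 0.201, 0.189 and 0.0492 CPM in nal1, from 3, 6 and 1 reads, and 9.60, 10.2 and 7.98 CPM in Sebastian, from 223, 286 and 494 reads. The log2 fold change was −5.92 (SE 0.35). In blf13 only 1 read was counted over the 3 libraries, and in Bonus 7 reads. The 3 Sebastian libraries were above the other 9, and nal1 lay near the level of blf13 and Bonus.

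The gene 2HG0212120 had a different level in each background and was nearly absent from nal1. In nal1 it had 1, 0 and 0 reads, and in Sebastian 85, 110 and 256 reads, or 3.66, 3.94 and 4.14 CPM. The ratio of nal1 to Sebastian was 0.00374, with a 95% counting interval of 9.46e-05 to 0.0210 that covers counting error only. In blf13 it had 30.3, 29.9 and 29.7 CPM, and in Bonus 32.6, 32.1 and 30.4 CPM, so that Sebastian stood below both and nal1 below Sebastian, with no overlap.

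The remaining pair of named genes was weaker. The gene 2HG0206190 had 0.537, 0.662 and 0.590 CPM in nal1 and 2.67, 3.19 and 2.49 CPM in Sebastian, a log2 fold change of −2.18 (SE 0.28), with 4.48 ± 1.67 CPM in blf13 (SD, n = 3) and 3.24 ± 0.300 CPM in Bonus (SD, n = 3). The gene 2HG0213040 had 1.14, 3.66 and 1.03 CPM in nal1 and 0.559, 0.429 and 0.372 CPM in Sebastian. Its increase (log2 fold change 2.20, SE 0.46) leaned on nal1 replicate 2, without which the log2 fold change was 1.29 and the gene was no longer called. It was not called without Sebastian replicate 3 either, at 2.04. A further gene with a 4-fold change, 2HG0206020, fell short of 1 CPM and is named after its values were seen. It had no read in nal1 and 15, 13 and 15 reads in Sebastian, with 80 reads in blf13 and 34 in Bonus. Against a floor of 3 reads summed over the nal1 libraries it was 8.49-fold lower in nal1. The 95% counting interval of the nal1 to Sebastian ratio reached up to 0.151, or 6.61-fold lower.

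**Figure D2:**
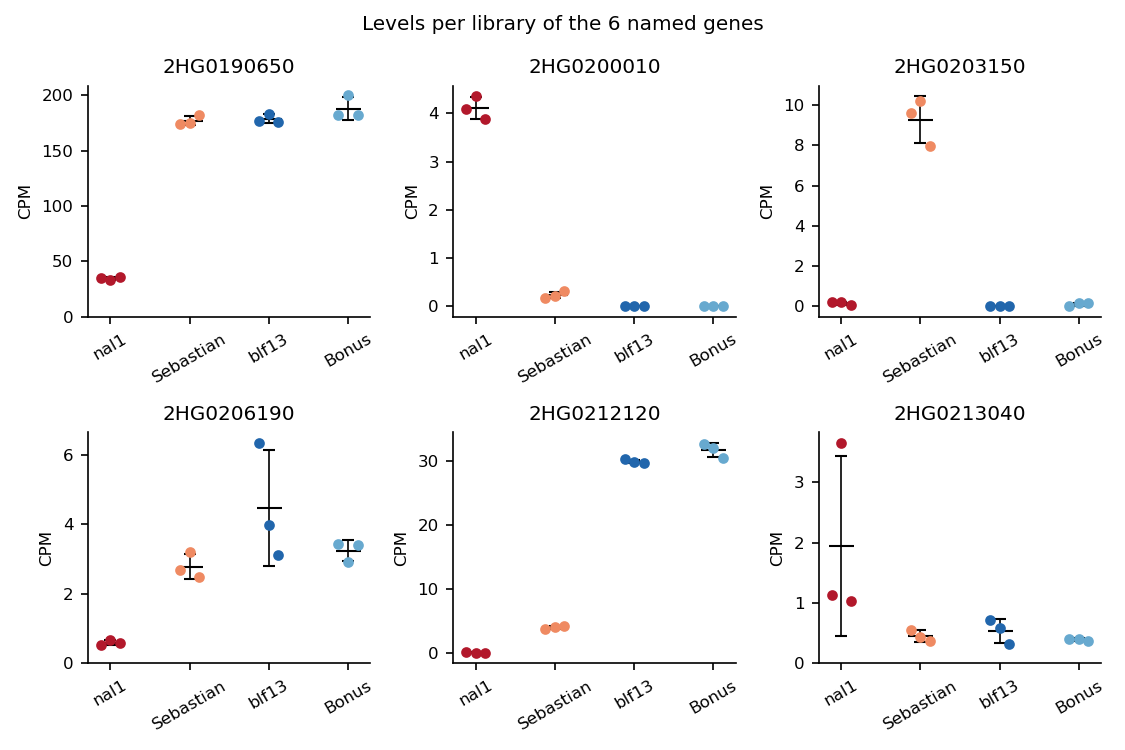
Level in CPM (vertical axis, linear and different in each panel) of the 6 named genes in each of the 12 libraries, grouped by genotype on the horizontal axis, with the mean as a horizontal line and the SD as a bar (n = 3). In 2HG0190650, 2HG0206190 and 2HG0212120 the nal1 libraries lie below all others, in 2HG0200010 and 2HG0213040 above all others, and in 2HG0203150 the Sebastian libraries stand apart.

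The same view was taken for all 35 genes called with a change of 2-fold or more. In 24 of them the 3 nal1 libraries lay outside the range of all 9 other libraries, 16 of these above and 8 below. In 2 genes, 2HG0203150 and 2HG0203380, it was Sebastian that lay outside the range of the other 9. In the other 9 genes neither nal1 nor Sebastian lay outside the range of all others, and all 9 were higher in nal1 than in Sebastian. These counts only describe the 35 genes, which were chosen for a difference between nal1 and Sebastian. The matching shares over all tested genes were not computed, so whether the split is particular to the stretch was not tested. Among the more strongly counted genes of the list, chosen after their values were seen, 2HG0193150 had 10.9, 16.4 and 17.1 CPM in nal1 against 59.1, 56.2 and 49.0 CPM in Sebastian, with 83.5 ± 18.1 CPM in blf13 (SD, n = 3) and 71.2 ± 26.4 CPM in Bonus (SD, n = 3). The nal1 libraries lay far below the others, and the spread in blf13 and Bonus was wide. The gene 2HG0194750 had 24.3, 29.3 and 27.4 CPM in nal1 against 57.1, 54.0 and 57.3 CPM in Sebastian, and blf13 and Bonus averaged 70.6 ± 8.46 and 63.1 ± 5.87 CPM (SD, n = 3 each). Upward, 2HG0185600 had 10.5, 13.1 and 16.0 CPM in nal1 against 8.69, 6.51 and 4.62 CPM in Sebastian, so that the groups were apart but near each other. The gene 2HG0200390 had 35.1, 37.7 and 38.4 CPM in nal1 against 15.1, 14.6 and 9.55 CPM in Sebastian, and 10.8 ± 1.44 CPM in blf13 (SD, n = 3) and 11.4 ± 1.38 CPM in Bonus (SD, n = 3). The gene 2HG0209020 had 28.4, 41.0 and 39.9 CPM in nal1 against 18.0, 18.4 and 16.2 CPM in Sebastian, with blf13 at 25.5 ± 1.28 CPM and Bonus at 18.6 ± 5.50 CPM (SD, n = 3 each). In 2HG0200390 and 2HG0209020, the lowest nal1 library lay above the highest of the other 9. The gene 2HG0207200 rose in nal1 (26.0, 17.3 and 23.2 CPM, against 11.7, 11.2 and 7.82 CPM in Sebastian) and was lower in the other background, at 1.57 ± 0.633 CPM in blf13 (SD, n = 3) and 3.12 ± 0.826 CPM in Bonus (SD, n = 3). Of the 26 genes that were higher, 5 stayed under 1 CPM in both nal1 and Sebastian, and so did 2 of the 9 that were lower.

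**Figure D3:**
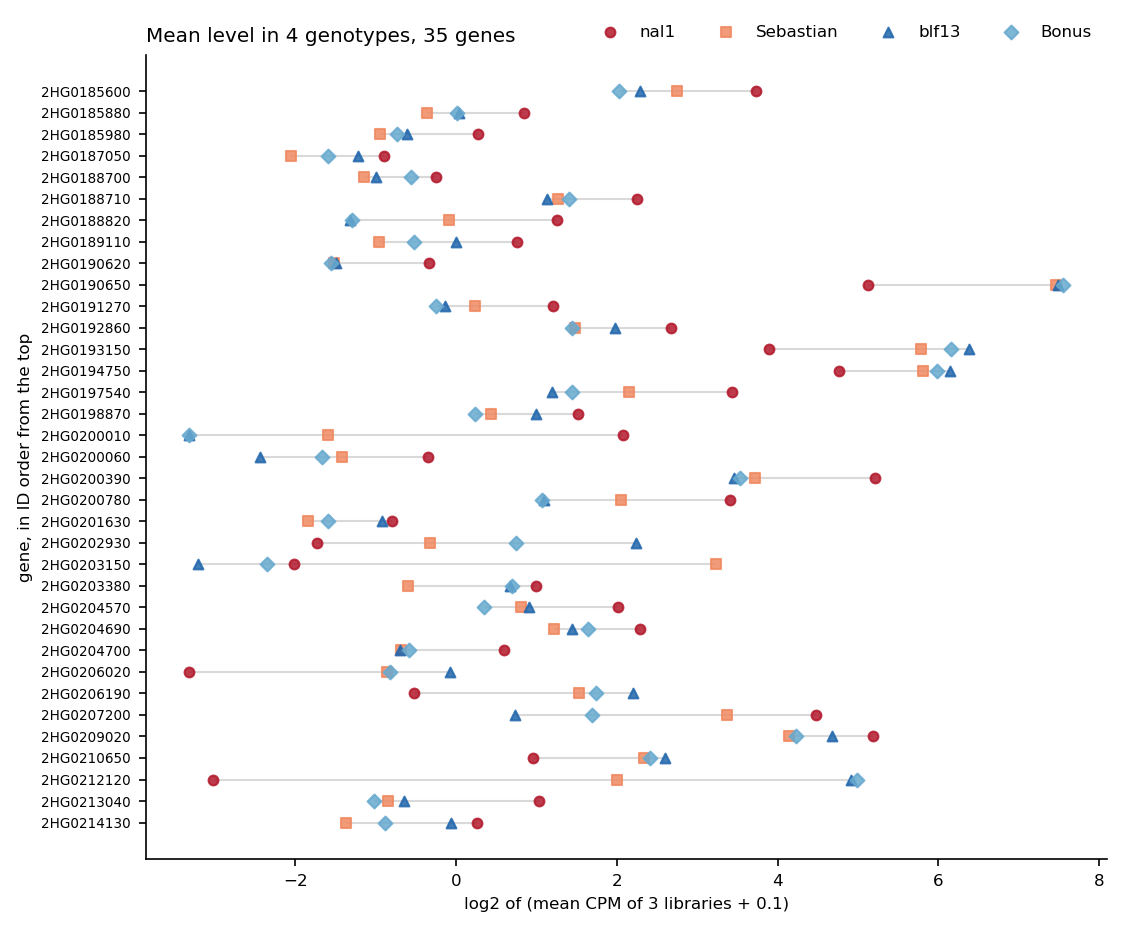
Mean level of the 35 genes called with a change of 2-fold or more in nal1 against Sebastian, as log2 of the mean CPM over 3 libraries plus 0.1 (horizontal axis), with genes in ID order from the top and 1 symbol per genotype. The nal1 symbol lies at 1 end of most lines, and blf13, Bonus and Sebastian lie close together in genes such as 2HG0190650 and 2HG0204700.

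Most genes next to the 6 named ones were not called. Taking the 5 tested genes on each side of the 6 named genes gave 60 flanking genes, of which 10 (16.7%, against 11.5% of all tested genes) were called. Called changes of 2-fold or more were found in 4 of them (6.67%, against 2.06% of all tested genes), and the median log2 fold change of the 60 was 0.05. Around 2HG0190650 the next tested gene, 2HG0190660, was called at a log2 fold change of only −0.20, and 2HG0190620, 2 places before it, rose by 1.45. None of the 10 neighbours of 2HG0212120 was called. The decreases of 2HG0206020 and 2HG0206190 lay 4 tested places apart, and the 3 tested genes between them were not called. The decrease of 2HG0202930 likewise lay 4 places before 2HG0203150, with no called gene between.

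**Figure D4:**
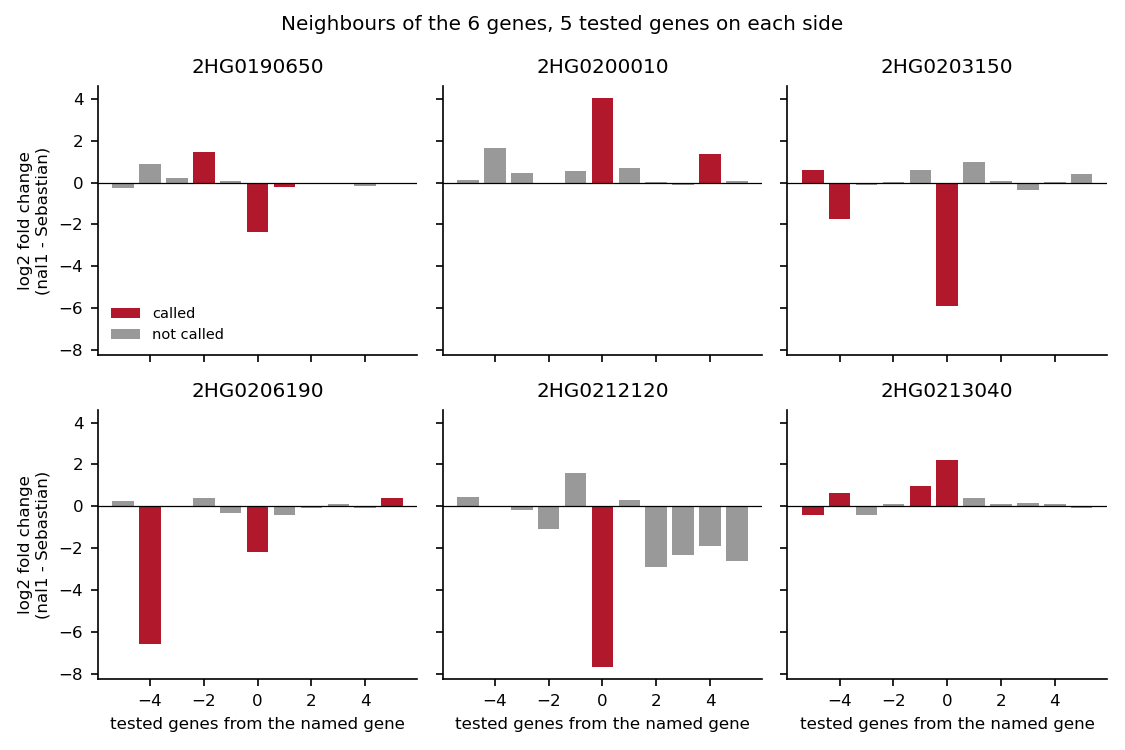
Fitted log2 fold change of nal1 over Sebastian (vertical axis) for the 6 named genes at 0 and for the 5 tested genes on each side in ID order (horizontal axis), with called genes in red and the others grey. Most neighbours lie near 0, and the grey bars at −1.88 to −2.90 to the right of 2HG0212120 belong to a run of genes with few reads.

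Over the 1039 pairs of tested genes next to each other in the stretch, both members were called in 11 pairs (1.06%), and in 5 of these they moved the same way. On the rest of 2H both were called in 46 of 2693 pairs (1.71%), 24 of them in the same direction, and on the other chromosomes in 309 of 18650 (1.66%), 194 of them in the same direction. Log2 fold changes of neighbours in the stretch had a Pearson r of 0.0512 and a Spearman rho of 0.055 over 1039 pairs. On the rest of 2H they were 0.247 and 0.0682, and on the other chromosomes 0.163 and 0.0755, with r first. These pairs share all libraries, and the values are a description. Both members were called with a change of 2-fold or more in 9 pairs on the rest of 2H (0.334%). On the other chromosomes this held for 35 pairs (0.188%). In the stretch it held for 2 pairs (0.192%), a share near that of the other chromosomes. In the first, 2HG0188700 had 0.741 ± 0.0957 CPM in nal1 against 0.350 ± 0.107 CPM in Sebastian, and 2HG0188710 had 4.64 ± 0.602 against 2.30 ± 0.0611 CPM (SD, n = 3 each). In the second, 2HG0204690 had 4.80 ± 0.466 CPM in nal1 against 2.23 ± 0.282 CPM in Sebastian, and 2HG0204700 had 1.41 ± 0.379 against 0.523 ± 0.148 CPM (SD, n = 3 each). All 4 genes were higher in nal1. The call of 2HG0188700 was lost under 9 of 11 alternatives, with log2 fold changes of 0.86 to 1.32 over the 11, and that of 2HG0204700 without nal1 replicate 3 or Sebastian replicate 2 or 3, at 1.21, 1.24 and 1.51. The others kept theirs under all 11. Reads of overlapping genes cannot be told apart by strand in these libraries, and whether the members of a pair overlap was not tested.

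A looser group of increases, picked after its values were seen, lay within 23 consecutive tested genes. It held 2HG0200010, 2HG0200060, 2HG0200390 and 2HG0200780, in each of which the nal1 libraries lay above all 9 others. The gene 2HG0200060 was weak, at 0.738, 0.725 and 0.590 CPM in nal1 and 0.344, 0.251 and 0.226 CPM in Sebastian. The gene 2HG0200780 had 8.99, 13.9 and 8.70 CPM in nal1 and 3.96, 5.19 and 3.02 CPM in Sebastian, with 2.04 ± 0.728 CPM in blf13 (SD, n = 3) and 1.99 ± 0.595 CPM in Bonus (SD, n = 3). Between each of the 35 genes of 2-fold or more and the next lay 34 gaps, with a median of 25.5 tested places. Of these gaps, 9 were of 5 places or fewer, 2 of them of 1 place, and the widest ran over 108 places, from 2HG0194750 to 2HG0197540.

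One run of neighbours did vary together, but between libraries as much as between genotypes. The 5 consecutive tested genes 2HG0212320, 2HG0212340, 2HG0212350, 2HG0212360 and 2HG0212380 had log2 fold changes of nal1 over Sebastian between −2.90 and −1.88, and none was called. Their summed level was 0.805, 0.473 and 0.737 CPM in nal1, from 12, 15 and 15 reads, and 4.13, 2.25 and 3.47 CPM in Sebastian. In blf13 it was 0.716, 13.5 and 1.19 CPM, and in Bonus 1.11, 6.49 and 0.976 CPM. Replicate 2 was thus the high library in both blf13 and Bonus, while replicates 1 and 3 of these genotypes lay near nal1. The blf13 replicate 2 library also had the most unmapped reads, 29.8%, whose part in this was not tested. Over all chromosomes, 9 runs of at least 5 neighbours with a fitted change of 2-fold or more in 1 direction were found, this one included.

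By position, the stretch was split into 10 bins of 104 tested genes each in ID order, and genes called in nal1 against Sebastian were found in every bin. Their share lay between 6.73% in bin 6 and 16.3% in bin 10, where 11.5% of all tested genes were called. Decreases of 2-fold or more lay in bins 3, 4, 7, 8 and 9. Bin 6, picked after its values were seen, held 7 called genes, all of them higher. Of these, 5 changed by 2-fold or more, and they include the looser group already described.

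The comparison of blf13 with Bonus shares no library with the one that set the range, and asks which genes of the stretch differ in the other mutant line. The largest changes there were in genes that were not among the 35 with a 2-fold change in nal1. The gene 2HG0185910 had 11.6, 11.5 and 15.3 CPM in blf13 and 0.101, 0.0734 and 0.0465 CPM in Bonus, from 5 Bonus reads in all. Its level in blf13 was 174 times that in Bonus (log2 fold change 7.37, SE 0.34, edgeR adjusted p = 3.33e-08), with 0.158 ± 0.161 CPM in nal1 and 0.176 ± 0.00364 CPM in Sebastian (SD, n = 3 each). The 9 libraries of the other genotypes had at most 0.344 CPM. The gene 2HG0210430 had 4.91, 6.85 and 8.50 CPM in blf13 and 0.405, 0.183 and 0.0465 CPM in Bonus, for which the log2 fold change was 5.01 (SE 0.40) and the edgeR adjusted p = 1.11e-05. In nal1 it had 0.307 ± 0.146 CPM and in Sebastian 0.420 ± 0.117 CPM (SD, n = 3 each), and none of these 6 libraries exceeded 0.501 CPM.

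Downward, 2HG0191330 had 2.72, 2.39 and 1.82 CPM in blf13 and 8.14, 7.34 and 8.69 CPM in Bonus (log2 fold change −1.79, SE 0.14, edgeR adjusted p = 8.70e-06). Its level was 10.2 ± 0.787 CPM in nal1 and 9.50 ± 0.830 CPM in Sebastian (SD, n = 3 each), close to that in Bonus. The gene 2HG0196030 had 2.57, 1.99 and 2.24 CPM in blf13 and 4.75, 3.81 and 4.51 CPM in Bonus (log2 fold change −0.93, SE 0.14, edgeR adjusted p = 0.00457). Fitted to the 6 libraries of these genotypes alone it missed the threshold (edgeR adjusted p = 0.055), where its adjusted p over all alternatives ran from 0.000439 to 0.055. Outside the naming rule, 2HG0190240 averaged 41.9 CPM in blf13 and 19.6 CPM in Bonus (log2 fold change 1.10, SE 0.08, edgeR adjusted p = 2.10e-06). A pair of neighbours rose together, likewise named after their values were seen, with 2HG0205450 at 1.64 CPM in blf13 and 0.542 CPM in Bonus and 2HG0205460 at 5.77 CPM in blf13 and 2.54 CPM in Bonus (edgeR adjusted p = 0.00548 and 0.0161). A weak gene, 2HG0191140, had 29 reads in blf13 and 1 in Bonus (edgeR adjusted p = 0.0279, and 0.0552 with a replicate block). The gene 2HG0200560 was called lower in blf13 (edgeR adjusted p = 0.0254) although its libraries overlapped, with 0.296, 0.543 and 0.0699 CPM in blf13 and 6.22, 9.87 and 0.325 CPM in Bonus. It had 1.88 ± 0.739 CPM in nal1 and 0.338 ± 0.239 CPM in Sebastian (SD, n = 3 each). These libraries did not overlap, but the gene was not called in nal1 (log2 fold change 2.30, SE 0.88).

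In all, 36 genes of the stretch (3.46%) were called in blf13 against Bonus, where 3.19% of all tested genes were called, 16 of them higher (background 1.21%) and 20 lower (background 1.98%). This share was near the background. Changes of 2-fold or more were found in 9 genes (0.865%, background 0.784%), 7 of them higher (background 0.539%) and 2 lower (background 0.245%). The replicate numbers of blf13 and Bonus went together across all genes. With a replicate block 15 genes were called, all 15 among the 36, with 8 higher and 7 lower. The count rested on single libraries, at 12, 12 and 67 without blf13 replicate 1, 2 or 3 and 15, 14 and 82 without Bonus replicate 1, 2 or 3, and it was 7 without both replicate 2 libraries.

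None of the 5 genes that were 4-fold or more lower in nal1 was called in blf13 against Bonus. Of all tested genes only 3.19% were called there, so no call among 5 genes is near the background. For 2HG0190650 the log2 fold change of blf13 over Bonus was −0.07 (SE 0.05, edgeR adjusted p = 0.447), and for 2HG0212120 it was −0.08 (SE 0.08, edgeR adjusted p = 0.617). For 2HG0203150, with 1 read in blf13 and 7 in Bonus, the test made no call (edgeR adjusted p = 0.137). Of the 35 genes with a 2-fold change in nal1, again near the background of 3.19%, 1 was called in blf13 against Bonus. This was 2HG0202930, with 0.0671, 0.189 and 0.344 CPM in nal1 against 0.516, 0.787 and 0.792 CPM in Sebastian, and 4.54, 5.40 and 3.95 CPM in blf13 against 1.82, 1.50 and 1.39 CPM in Bonus (edgeR adjusted p = 0.00269 for blf13). It was lower in nal1 and higher in blf13 than in the wild type of each, from few reads in nal1. Over the whole stretch, 5 genes were called in both mutants, which is 13.9% of those called in blf13 and 4.50% of those called in nal1. Over all tested genes, 175 were called in both, which is 24.4% of those called in blf13 and 6.76% of those called in nal1. With the replicate block, 3 of the 5 kept their call in blf13. Of these 5, 2 had the same direction in both mutants and 3 did not, where 97 of the 175 had the same direction. Among the 3 was 2HG0212940, at 44.8 ± 1.52 CPM in nal1 against 28.7 ± 1.43 CPM in Sebastian and 9.99 ± 0.183 CPM in blf13 against 13.1 ± 1.89 CPM in Bonus (SD, n = 3 each). Its call in blf13 was lost with the block (edgeR adjusted p = 0.0355, and 0.0525 with the block).

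Sebastian against Bonus gives the difference between the wild types in the same genes. It shares the Sebastian libraries with the comparison of nal1, so the values are only set side by side. Here 259 genes of the stretch (24.9%) were called, where 17.6% of all tested genes were called, 125 of them higher in Sebastian (background 8.44%) and 134 lower (background 9.12%). A change of 2-fold or more was found in 115 genes (11.1%, background 7.19%), 52 of them higher (background 3.82%) and 63 lower (background 3.37%). Whether this share differs from that of other stretches was not tested. Several differences were of presence and absence, with mutant and wild type alike. The gene 2HG0209880 had 12.6, 14.0 and 13.8 CPM in Sebastian and no read in Bonus. Against a floor of 3 reads summed over the Bonus libraries it was 311-fold higher (95% counting interval from 253-fold, edgeR adjusted p = 5.48e-09). It had 10.5 ± 0.895 CPM in nal1 (SD, n = 3) and no read in blf13. The gene 2HG0199030 had 2.67, 1.86 and 2.73 CPM in Sebastian, 2.46 ± 0.315 CPM in nal1 (SD, n = 3) and no read in Bonus or blf13. By the same floor it was 57.2-fold higher in Sebastian than in Bonus (95% counting interval from 46.2-fold, edgeR adjusted p = 2.72e-06).

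In the other direction, 2HG0208080 had no read in Sebastian and 2.83, 3.45 and 5.81 CPM in Bonus, at least 151-fold lower in Sebastian by a floor of 3 reads summed over its libraries (edgeR adjusted p = 4.15e-07). It had 1 read in nal1 and 5.60 ± 0.584 CPM in blf13 (SD, n = 3). The gene 2HG0215870 had no read in Sebastian or nal1 and 3.99, 3.37 and 3.30 CPM in Bonus, at least 133-fold lower in Sebastian by the same floor (edgeR adjusted p = 1.18e-07), and 3.75 ± 0.300 CPM in blf13 (SD, n = 3). In all 4 genes the mutant of each background thus had the level class, present or nearly absent, of its wild type. The genes named for nal1 were chosen with these Sebastian libraries, so their levels in the wild types are a description. The gene 2HG0203150 had 9.27 ± 1.16 CPM in Sebastian against 0.0954 ± 0.0827 CPM in Bonus, and 2HG0212120 had 3.91 ± 0.241 CPM in Sebastian against 31.7 ± 1.11 CPM in Bonus (SD, n = 3 each). For 2HG0200010 Sebastian had 29 reads and Bonus none, and for 2HG0190650 the levels were 177 ± 4.05 CPM in Sebastian and 188 ± 10.2 CPM in Bonus (SD, n = 3 each). Along the stretch, the called share for Sebastian against Bonus was 2.88% in bin 1, 22.1% in bin 2, 11.5% in bin 4 and 32.7% in bin 6, and it was 37.5% in bin 10. For nal1 against Sebastian the share was 9.62% in each of bins 1, 2 and 4, 6.73% in bin 6 and 16.3% in bin 10.

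**Figure D5:**
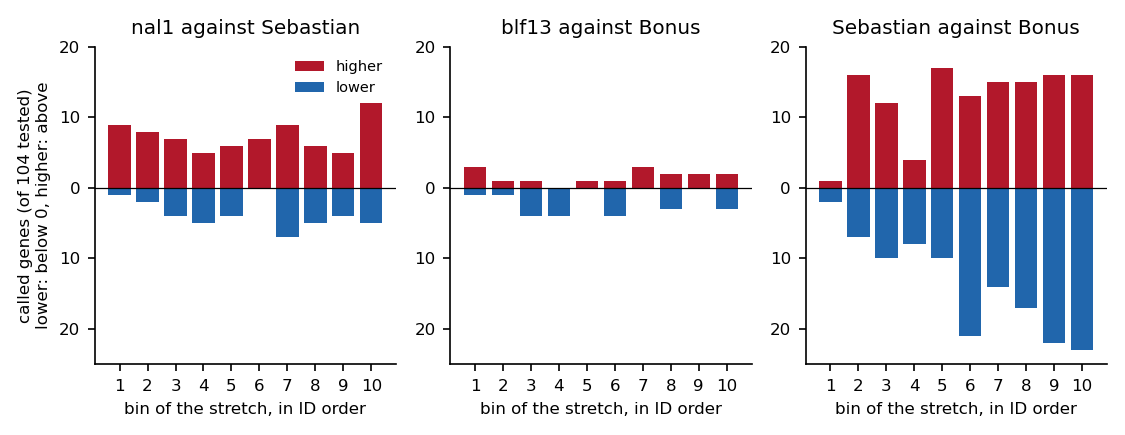
Number of called genes (vertical axis, higher above 0 in red and lower below 0 in blue) in each of the 10 bins of 104 tested genes in ID order (horizontal axis), for nal1 against Sebastian, blf13 against Bonus and Sebastian against Bonus. Sebastian against Bonus has 3 called genes in bin 1 and 39 in bin 10, and nal1 against Sebastian has between 7 and 17 in every bin.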

How the data were processed

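Per the labels, the 12 libraries were made from TRIzol RNA with a NEBNext Ultra kit, a kind that does not mark strand. The authors deposited raw read counts per gene for each library, and the column counted without regard to strand was used. The submitters' processing notes list STAR 2.7.3a, and the files have the layout of its gene counts, in which reads that match several places or several genes count for none, so near-identical copies are undercounted. The build, trimming and filters were not given in the sources used here. Left out were the 4 summary lines per file, 15.7% to 37.9% of the reads.

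The test was that of edgeR 4.0.16 (R 4.3.3), with filterByExpr by genotype, TMM scaling, a quasi-likelihood fit to all 12 libraries and Benjamini-Hochberg adjustment over 22437 genes at 0.05. Log2 fold changes came from that fit, and CPM from its TMM-scaled library sizes. Each standard error is the absolute log2 fold change divided by the square root of the test's F statistic. Ratios of named genes not given as log2 were computed from reads summed per genotype over the scaled library sizes. The same steps were also run on simulated data, whose outcome is not given here. Alternatives were DESeq2 1.42.0, limma's loess scaling (3.58.1), no filter, fits to the genotypes compared alone, each library left out, and a replicate block. No 2 replicates agreed within sampling noise (chi-square per degree of freedom 3.76 to 11.0). Deviations from the genotype means of same-numbered libraries correlated at 0.219, 0.315 and 0.213 between blf13 and Bonus, every pair above 0.1. The values printed for this comparison come from the fit without a block. Values with the replicate block are given for some of the calls and counts that changed, not for all. Between nal1 and Sebastian they were −0.0997, −0.0408 and 0.110, and between Sebastian and Bonus −0.0354, −0.0145 and −0.00957. The pairing of blf13 and Bonus comes from these values and not from the labels.

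The members, lists and naming rules were chosen with earlier results of these data known. Named were genes called in nal1 against Sebastian with a 4-fold change, no overlap and at least 1 CPM in the higher genotype, plus 2HG0190650, neighbouring tested genes both changed by 2-fold or more, and the 2 highest and 2 lowest called genes of the other comparisons with no overlap and at least 1 CPM. The counting intervals and floors cover counting error only.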

Additional observations from a re-analysis of the deposited data

Results flagged for a closer look

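In 31 of the 1040 tested genes (2.98%, against 3.31% of all tested genes), every nal1 library lay on one side of all Sebastian libraries and every blf13 library on the other side of all Bonus libraries. Of these 31, 11 were called in at least 1 mutant and 3 in both. With the replicate block, 2HG0212940, 1 of these 3, lost its call in blf13. Over all tested genes, 175 were called in both mutants, 97 of them in the same direction. The matching shares of called genes among those on opposite sides were not computed over all tested genes. The 4 of the 31 whose levels were looked at per library, as neighbours or as genes called in both mutants, are given here. The difference between these effects was not tested. The log2 fold changes were 1.10 in nal1 and −0.53 in blf13 for 2HG0188700, and −1.76 in nal1 and 1.56 in blf13 for 2HG0202930. They were 0.42 in nal1 and −0.66 in blf13 for 2HG0212650, and 0.64 in nal1 and −0.39 in blf13 for 2HG0212940. The change of 2HG0188700 in blf13 was not called (edgeR adjusted p = 0.34). Groups of 3 libraries are too small for a check of single outlying libraries.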

How the results depend on the processing

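For nal1 against Sebastian, the 111 called genes became 170 without the low-count filter and between 35 and 114 when 1 library was left out, and the 35 genes of 2-fold or more between 18 and 45. Of the 6 named genes, 5 or 6 stayed called with the same sign under every alternative. With the replicate block, 107 genes were called, and the 6 named genes kept their calls. For blf13 against Bonus, the 36 called genes became 68 with DESeq2, 88 without the low-count filter, 9 in the fit to the 2 genotypes alone and 15 with the replicate block, and between 12 and 82 when 1 library was left out. An alternative added after seeing the data, without the replicate 2 libraries of blf13 and Bonus, gave 7. For Sebastian against Bonus, counts lay between 206 and 278 around 259 under every alternative, at 254 with the replicate block. Leaving out 1 library lowered some of these counts and raised others, and the causes were not tested. No gene named by rule, neighbouring pairs included, changed the sign of its log2 fold change under any alternative. Among the pairs, 2HG0188700 lost its call under 9 of 11 alternatives and 2HG0204700 under 3. Genes with a handful of reads, such as 2HG0206020, are limited by depth.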
